A study of Mus musculus with 7 samples.

Results

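Mechanical, acid and ATP sensing channels of sensory neurons were examined as 10 genes chosen by name: Piezo1 and Piezo2, Asic1, Asic2 and Asic3, and P2rx2, P2rx3, P2rx4, P2rx5 and P2rx6. All 10 were found among the 54309 genes of the table. Messenger RNA was measured by sequencing in cells from the dorsal root ganglia at lumbar levels L4-6, which hold the sensory neurons of the hind limb. All mice were C57bl/6, labelled male and aged 6 to 8 weeks, and all had an injured sciatic nerve. In the ZT20 group (4 samples) and the ZT8 group (3 samples) the injury was made at Zeitgeber time 20 or 8, counted in hours from lights on, and ganglia were taken 72 h later, so injury and dissection share a clock time in each group. There was no uninjured group among these samples. Ganglia were dissociated with enzymes and neurons enriched on an albumin gradient. The labels do not say whether replicates were separate animals or pools, so p-values measure the spread between these samples only.

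Piezo channels open when the membrane is stretched, and Piezo2 is the main channel for light touch and for the sense of limb position. Acid-sensing ion channels (ASICs) are trimeric sodium channels opened by extracellular protons. P2X receptors are trimeric cation channels opened by extracellular ATP, which damaged tissue releases, and P2X3 is the form typical of small nonpeptidergic pain-sensing neurons.

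Levels are given as TPM, in which reads are divided by transcript length and every library has the same sum, which allows levels of different genes to be set side by side within a sample. Every library showed 10 of 10 listed neuronal markers, with a summed level of 11110 to 14520 TPM. Markers of satellite glia, the cells that wrap each neuron, were also present, at 7493 to 9157 TPM in sum at ZT20 against 12760 to 15480 TPM at ZT8. Apoe made up most of this sum (6261 to 7615 TPM at ZT20 and 10620 to 13560 TPM at ZT8), and of the 7 markers 3 passed as lower, 0 passed as higher and 4 did not pass. Plasma cell markers also summed to less at ZT20 (267 to 485 TPM against 496 to 933 TPM), with 1 of 4 tested, Mzb1, lower (−2.89, limma adjusted p = 0.0432, listed at 0 in ZT20 replicate 4). Sequencing depth is unknown. ZT8 replicate 2 stood apart, with 18297 genes above 0 TPM against 22541 to 25238 in the other libraries. Y-linked transcripts went against the label male in some libraries: 4 Y-linked genes summed to 63.6 and 33.1 TPM in ZT20 replicates 1 and 2, to 0.0162 and 0.00868 TPM in ZT20 replicates 3 and 4, and to 61.1 to 84.6 TPM at ZT8. The library identifiers were numbers at ZT20 and letters at ZT8, so any batch they mark and the clock time cannot be told apart.

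Of the 10 channel genes, 8 had a mean of at least 1 TPM and were tested, while Piezo1 and P2rx2 lay under that level and are described by their values. Differences are ZT20 minus ZT8 on the log2(TPM + 1) scale, which understates changes of genes with low values. Of the 8 tested genes, Piezo2 and P2rx3 were higher at ZT20 at a limma adjusted p under 0.05, 0 were lower, and 6 did not pass. Across all 14800 tested genes 16.4% passed, 12.8% higher and 3.61% lower at ZT20. For 3 of the 8 (Piezo2, P2rx3 and Asic2) every ZT20 library lay above every ZT8 library; such a gap in either direction was seen for 33.2% of all tested genes. The log2 difference was positive for all 8 tested channel genes, with a median of 0.55, and positive for 66.4% of all tested genes, with a median of 0.23. Without ZT8 replicate 2 it was positive for 5 of the 8, with a median of 0.32 (all genes 0.15), and after a correction of each library for transcript length and GC content for 6 of the 8, with a median of 0.28 (all genes −0.0083). Median-ratio scaling between libraries moved the median of all genes to 0.033 and the share of higher genes among those that passed from 78.1% to 49.3%, and under it the 8 channel genes had a median of 0.32 and 0 of them passed. In the length and GC correction 40.5% of the genes that passed were higher, and under quantile normalization 55.7%, where Piezo2 and P2rx3 both passed (limma adjusted p = 0.0478 and 0.0458) and the 8 channel genes had a median of 0.43.

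**Figure D1:**
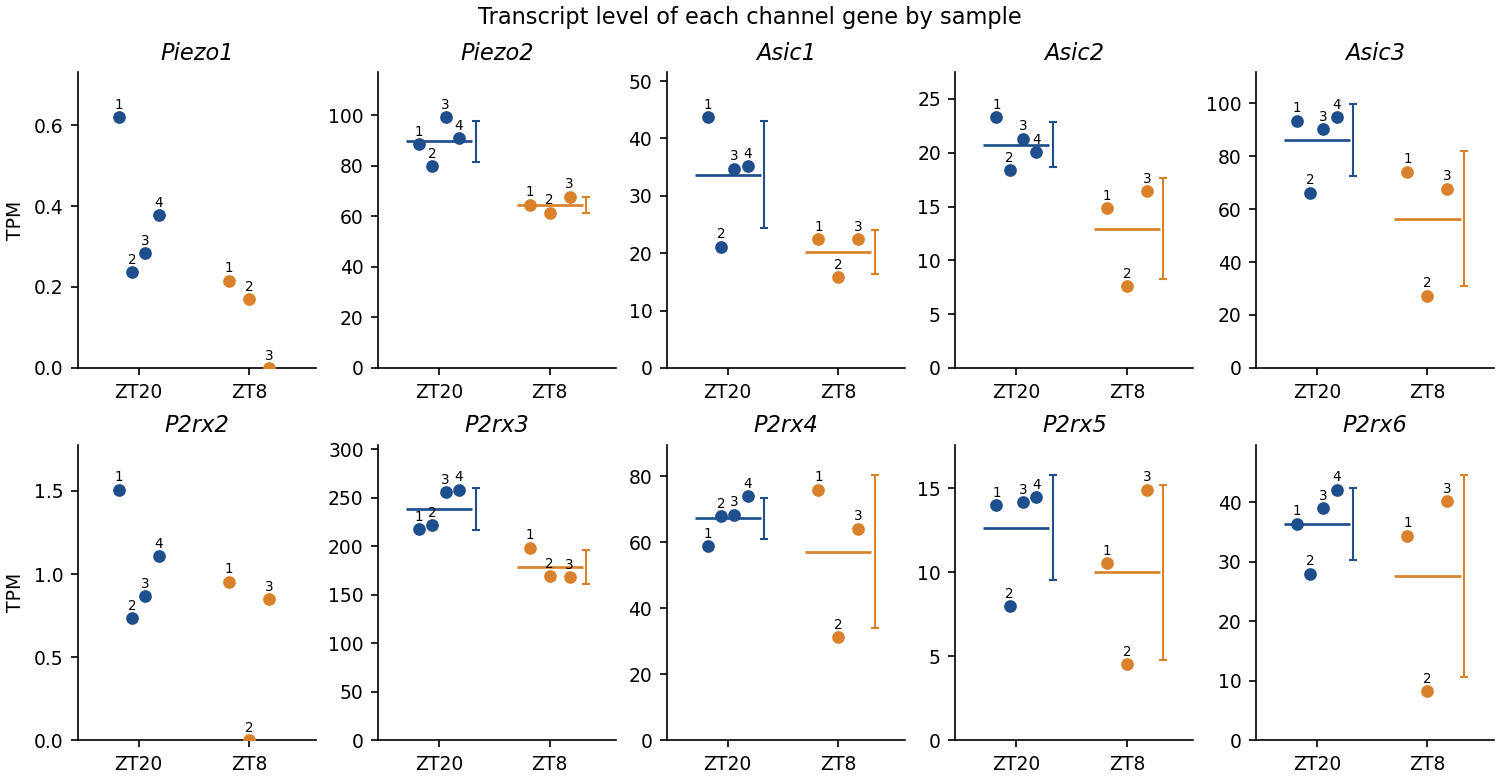
Transcript level (TPM, linear axes from 0) of the 10 channel genes, with each point a library marked by its replicate number. Lines are group means and bars 1 SD (not drawn for Piezo1 and P2rx2, which are listed at 0 in a library). ZT20 (4 libraries) lies above ZT8 (3 libraries) without overlap for Piezo1, Piezo2, Asic2 and P2rx3, and ZT8 replicate 2 is far below its group for P2rx6, P2rx5 and Asic3.

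Piezo2 (ENSMUSG00000041482), the touch channel, measured 88.6, 79.7, 99.1 and 91.0 TPM in replicates 1 to 4 of ZT20 and 64.5, 61.4 and 67.7 TPM in ZT8 replicates 1 to 3. Every ZT20 library lay above every ZT8 library, and the spread within each group was small. The means were 89.6 ± 7.97 TPM at ZT20 (SD, n = 4) and 64.6 ± 3.14 TPM at ZT8 (SD, n = 3). Their log2 difference was 0.46 (standard error 0.12), with a 95% interval of 0.19 to 0.73 (limma adjusted p = 0.0337). In this bulk measurement, fewer cells of a type and less RNA per cell cannot be told apart. The call ended under median-ratio scaling (0.23, limma adjusted p = 0.168), and the direction turned after each library was corrected for transcript length and GC content (−0.30, limma adjusted p = 0.117), within a range of 0.0271 to 0.675 over 18 alternatives. The call also ended without ZT20 replicate 1, 3 or 4 (limma adjusted p = 0.0825, 0.11 and 0.0953) and without ZT8 replicate 1 or 3 (0.0636 and 0.0559), and it held without ZT20 replicate 2 or ZT8 replicate 2.

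Piezo1 (ENSMUSG00000014444), the stretch channel of blood vessels and red blood cells, was at 0.619, 0.237, 0.283 and 0.378 TPM in the ZT20 replicates. It was at 0.216 and 0.170 TPM in ZT8 replicates 1 and 2 and was listed at 0 in ZT8 replicate 3. All values were under 1 TPM, the ranges did not overlap, and no test was made. Ctu2 and Gm20388 overlap Piezo1 on the opposite strand in GENCODE M21. In the 6 libraries with both genes above 0, the level of Piezo2 was 143 to 362 times that of Piezo1. Markers of endothelial cells, in which Piezo1 is known to act, summed to only 4.27 to 6.60 TPM at ZT20 and 0.680 to 6.40 TPM at ZT8, with Cdh5, Tek and Emcn listed at 0 in some libraries. Erythroid markers summed to 2369 to 6679 TPM at ZT20 and 951 to 9534 TPM at ZT8. The part of either cell type in the Piezo1 values was not tested.

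The ASIC genes were all more abundant on average at ZT20, and 0 of 3 passed the test. Asic3 (ENSMUSG00000038276), the ASIC best known from muscle and skin afferents, was at 93.4, 66.2, 90.3 and 94.7 TPM at ZT20 and 74.1, 27.3 and 67.75 TPM at ZT8. ZT20 replicate 2 and ZT8 replicate 2 were each well below the rest of their group, and ZT8 replicates 1 and 3 lay above ZT20 replicate 2. The log2 difference of Asic3 was 0.71 with a 95% interval of −0.027 to 1.45 (limma adjusted p = 0.157), and without ZT8 replicate 2 it was 0.26.

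Asic1 (ENSMUSG00000023017), the subunit that also carries much of the proton current of central neurons, was at 43.7, 21.1, 34.7 and 35.2 TPM at ZT20 and at 22.45, 15.9 and 22.45 TPM at ZT8. Only ZT20 replicate 2 fell within the range of ZT8. The log2 difference was 0.68 with a 95% interval of 0.11 to 1.25 and did not pass over all genes (limma adjusted p = 0.0943). Without ZT20 replicate 2 it was 0.88 and passed (limma adjusted p = 0.0335, of a range of 0.0335 to 0.648 over 18 alternatives). After the length and GC correction it was 0.19, and 0.18 with the replicate block added.

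Asic2 (ENSMUSG00000020704), which joins other ASIC subunits in mixed channels, was at 23.3, 18.4, 21.3 and 20.04 TPM at ZT20 and at 14.8, 7.61 and 16.4 TPM at ZT8. The groups did not overlap, yet the log2 difference of 0.70 (95% interval 0.13 to 1.28) did not pass the test over all genes (limma adjusted p = 0.0881). It was 0.38 without ZT8 replicate 2 and 0.29 after the length and GC correction. Asic2 contains several antisense and pseudogene entries in GENCODE M21, and reads from a gene and its antisense partner cannot be told apart without strand.

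P2rx3 (ENSMUSG00000027071), which encodes the P2X3 subunit, was at 217.5, 221, 256 and 258 TPM at ZT20 and 199, 169 and 168 TPM at ZT8. All ZT20 libraries lay above all ZT8 libraries, and P2rx3 was the highest of the 10 channel genes in 7 of 7 libraries. The means were 238 ± 21.8 TPM at ZT20 (SD, n = 4) and 178.5 ± 17.4 TPM at ZT8 (SD, n = 3). Their log2 difference was 0.41 (standard error 0.12), with a 95% interval of 0.14 to 0.69 (limma adjusted p = 0.0483). The call ended under median-ratio scaling (0.18, limma adjusted p = 0.258, of a range of 0.0414 to 0.731 over 18 alternatives), and the difference was as large after the length and GC correction (0.41, limma adjusted p = 0.0578). Among the fits that left out 1 library it passed only without ZT8 replicate 1 (0.0458). It was at 0.0756, 0.0642, 0.141 and 0.135 without ZT20 replicates 1, 2, 3 and 4 in turn, and at 0.0699 and 0.106 without ZT8 replicates 2 and 3 (limma adjusted p). Ssrp1 overlaps P2rx3 on the opposite strand in GENCODE M21.

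The nonpeptidergic pain-sensing neurons that carry P2X3 were followed by 7 other markers. Of these 7, 3 rose at ZT20 (Ret, the GDNF receptor kinase, Plxnc1, a plexin, and Scn11a, the sodium channel Nav1.9) and 0 fell, with a median log2 difference of 0.61, while 12.8% of all tested genes were higher. These 3 have long transcripts (5456, 7302 and 5899 nt), in length groups where the median of all genes was 0.56 to 0.69 and 28.3% to 36.9% passed. The summed level of all 7 markers was 393 to 554 TPM at ZT20 and 249 to 328 TPM at ZT8. Mrgprd, the receptor that defines these cells, was at 90.9 TPM on average at ZT20 and 59.1 TPM at ZT8 and did not pass (limma adjusted p = 0.0599). Of 4 peptidergic markers 0 passed, with a median difference of −0.10. The part of these cell types in the P2rx3 difference was not tested.

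P2rx4 (ENSMUSG00000029470), the P2X subunit also known from macrophages and microglia, was at 58.7, 67.9, 68.4 and 73.9 TPM at ZT20 and at 76.0, 31.2 and 64.2 TPM at ZT8. The highest and the lowest library both belonged to ZT8. The log2 difference of 0.32 had a 95% interval of −0.30 to 0.95 (limma adjusted p = 0.432), and without ZT8 replicate 2 it turned to −0.059. Summed macrophage markers (8 genes) were at 298 to 631 TPM at ZT20 and 321 to 727 TPM at ZT8, and 1 of them, Mrc1, was higher and 1, C1qa, lower at ZT20. Their part in P2rx4 was not tested.

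P2rx6 (ENSMUSG00000022758), a subunit that forms channels poorly by itself, was at 36.4, 28.0, 39.0 and 42.1 TPM at ZT20 and at 34.4, 8.19 and 40.1 TPM at ZT8. ZT8 replicates 1 and 3 lay within the ZT20 range and replicate 2 far below it. The log2 difference was 0.64 with a 95% interval of −0.43 to 1.71 (limma adjusted p = 0.358), and without ZT8 replicate 2 it turned to −0.045. Slc7a4 overlaps P2rx6 on the opposite strand in GENCODE M21.

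P2rx5 (ENSMUSG00000005950), a less studied subunit, was at 14, 8.00, 14.2 and 14.5 TPM at ZT20 and at 10.5, 4.52 and 14.9 TPM at ZT8. The ranges overlapped, and ZT8 replicate 3 was the highest library of all. The log2 difference was 0.41 with a 95% interval of −0.43 to 1.25 (limma adjusted p = 0.454), and without ZT8 replicate 2 it turned to −0.022.

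P2rx2 (ENSMUSG00000029503), whose product pairs with P2X3 in mixed receptors, was scarce. It was at 1.51, 0.736, 0.865 and 1.11 TPM at ZT20 and at 0.955 and 0.848 TPM in ZT8 replicates 1 and 3, and was listed at 0 in ZT8 replicate 2. The ranges overlapped. In the 6 libraries with both genes above 0, P2rx3 was at 144 to 301 times the level of P2rx2. The remaining P2X genes were low too: P2rx7, the receptor of immune cells that needs high ATP, was at 4.17 ± 0.767 TPM at ZT20 (SD, n = 4) and averaged 4.57 ± 2.22 TPM at ZT8 (SD, n = 3), where the log2 difference of −0.027 had a 95% interval of −0.78 to 0.72 (limma adjusted p = 0.961), and P2rx1 ranged from 0.0379 to 0.473 TPM at ZT20, while each of the 3 ZT8 libraries lists it at 0.

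The groups are set by the clock, so promoters were searched for motifs of clock factors, and for that of AP-1, known from nerve injury. Those of Asic1 and P2rx4 are shown because they hold a match, and those of Asic3 and P2rx6 as examples without one. The 2 promoters of Asic2 and that of Piezo1 held no match and are not shown. The sequences come from RefSeq on GRCm38.p6 and run from 250 bases before to 50 after a gene start, 5′ to 3′ on the plus strand: chr15:99691974-99692273 for Asic1, chr5:24413201-24413500 for Asic3, chr5:122707294-122707593 for P2rx4 and chr16:17561635-17561934 for P2rx6. Capitals mark the nuclear receptor half-site AGGTCA or its reverse complement, the core of the element read by ROR and REV-ERB clock factors.
Asic1 promoter: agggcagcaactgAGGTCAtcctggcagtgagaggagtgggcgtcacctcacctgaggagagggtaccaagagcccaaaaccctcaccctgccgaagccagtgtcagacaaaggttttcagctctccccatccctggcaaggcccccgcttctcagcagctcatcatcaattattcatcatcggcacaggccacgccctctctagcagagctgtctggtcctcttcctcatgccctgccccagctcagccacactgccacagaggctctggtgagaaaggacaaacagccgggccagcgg
P2rx4 promoter: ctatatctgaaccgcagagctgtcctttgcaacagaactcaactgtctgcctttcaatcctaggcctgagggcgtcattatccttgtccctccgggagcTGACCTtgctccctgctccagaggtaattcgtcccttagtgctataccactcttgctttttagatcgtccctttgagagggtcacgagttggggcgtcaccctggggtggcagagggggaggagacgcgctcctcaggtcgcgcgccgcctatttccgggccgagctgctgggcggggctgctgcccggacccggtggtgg
Asic3 promoter: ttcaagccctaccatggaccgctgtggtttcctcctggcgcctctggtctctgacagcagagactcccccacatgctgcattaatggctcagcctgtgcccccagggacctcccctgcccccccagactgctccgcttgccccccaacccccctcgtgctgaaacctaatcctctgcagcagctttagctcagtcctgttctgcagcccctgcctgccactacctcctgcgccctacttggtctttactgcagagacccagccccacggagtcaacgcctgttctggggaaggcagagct
P2rx6 promoter: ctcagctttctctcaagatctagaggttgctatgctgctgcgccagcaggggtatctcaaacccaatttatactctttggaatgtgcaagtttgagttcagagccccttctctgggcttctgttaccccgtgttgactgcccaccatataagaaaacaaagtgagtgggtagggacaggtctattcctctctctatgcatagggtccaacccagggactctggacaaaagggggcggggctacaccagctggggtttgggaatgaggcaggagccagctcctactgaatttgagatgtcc

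Promoters were matched by symbol. Those of 6 of the 10 genes (7 sequences) were searched, and those of Piezo2, P2rx2, P2rx3 and P2rx5 were not. In the 7 sequences 4 motifs were searched on both strands: AGGTCA, the E-box CACGTG, the D-box as TTATGNAA and the AP-1 site as TGANTCA. None of these motifs overlaps another in the 7 sequences, because only AGGTCA was found, once in Asic1 (first base 14 of the sequence above) and once in P2rx4 on the opposite strand (first base 100). Over 32851 promoters of the same length, 16.3% hold AGGTCA, 7.15% CACGTG, 3.38% TTATGNAA and 7.81% TGANTCA. The P2rx4 sequence holds 18 CpG pairs, Asic1 and Asic3 7 each and P2rx6 3, against a median of 7 over those promoters. These letters are a description of the sequences. Neither gene with a match passed the test between clock times. No promoter of Piezo2 or P2rx3, the channel genes that passed, was searched, so matches cannot be set against calls.

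The 7 P2X genes summed to 332, 331, 383 and 395 TPM at ZT20 and to 326.5, 215 and 293.5 TPM at ZT8. P2rx3 held 65.6%, 67.0%, 66.8% and 65.4% of that sum at ZT20 and 60.8%, 78.6% and 57.2% at ZT8. The means were 66.2% ± 0.796 at ZT20 (SD, n = 4) and 65.55% ± 11.5 at ZT8 (SD, n = 3), but no ZT8 library lay within the ZT20 range, and without ZT8 replicate 2 the ZT8 mean was 59.0%. P2rx4 held 17.7% to 20.5% at ZT20 and 14.5% to 23.3% at ZT8, and P2rx6 8.46% to 10.97% and 3.81% to 13.7%. The spread of these shares was wider at ZT8, where replicate 2 was the library with the highest P2rx3 share and the lowest shares of P2rx4, P2rx5 and P2rx6.

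The ASIC genes summed to 106 to 160 TPM at ZT20 and 50.8 to 111 TPM at ZT8. Asic3 held 61.4% ± 2.22 of the sum at ZT20 (SD, n = 4) against 61.3% ± 6.67 at ZT8 (SD, n = 3), Asic1 23.6% ± 2.96 and 24.15% ± 6.16, and Asic2 15.0% ± 1.72 and 14.6% ± 1.10, with the same n. Over all libraries each of these shares differed between the groups by less than the SD within either group. Without ZT8 replicate 2 the ZT8 means were 65.0% for Asic3 and 20.6% for Asic1, further from the ZT20 means than the ZT20 SD. Asic4, a subunit that does not form a proton-gated channel by itself, was at most 0.104 TPM, and Asic5 was listed at 0 in all 7 libraries.

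**Figure D2:**
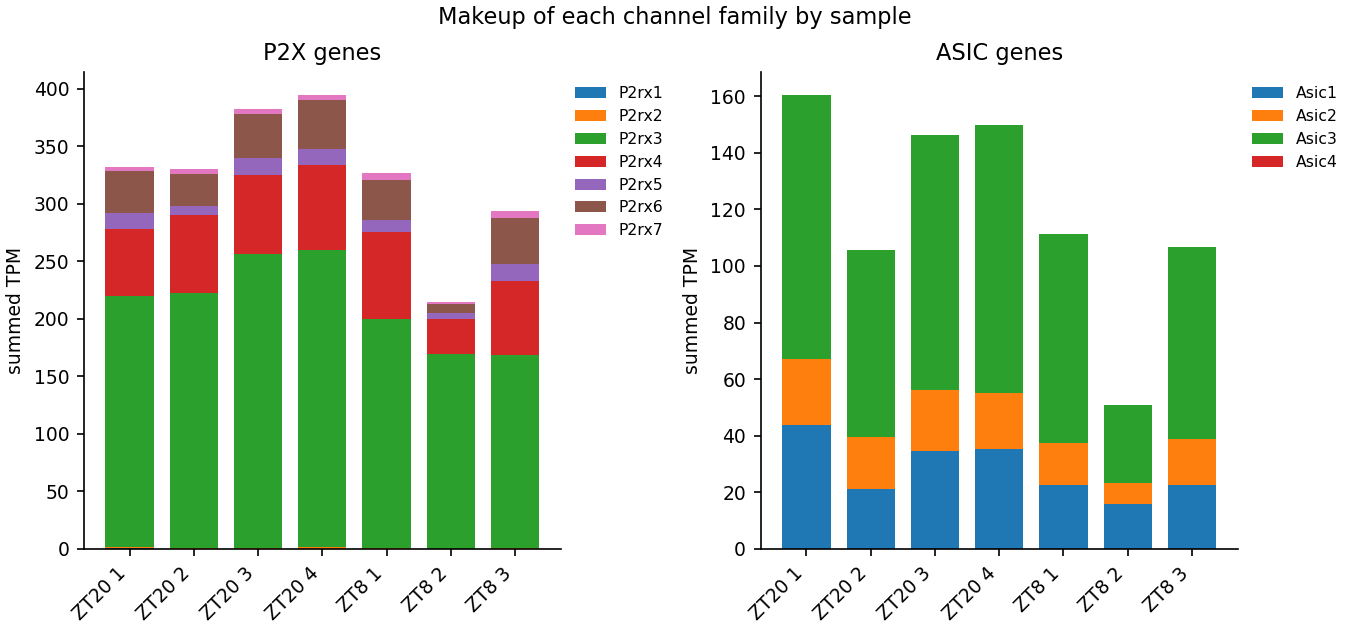
Summed TPM of the P2X genes (left) and ASIC genes (right) in each library, as stacked bars from 0 in which each colour is 1 gene. P2rx3 makes up 57.2% to 78.6% of the P2X sum and Asic3 53.8% to 66.5% of the ASIC sum, and the shortest bars of both families are those of ZT8 replicate 2.

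By mean level over the 7 libraries the order was P2rx3, Piezo2, Asic3, P2rx4, P2rx6, Asic1, Asic2, P2rx5, P2rx2 and Piezo1. P2rx3 was above Piezo2 in 7 of 7 libraries and lay above 93.7% of all tested genes. Piezo2 and Asic3 were not ordered beyond their spread, since Piezo2 was the higher in only 3 of 7 libraries, nor were Asic3 and P2rx4 (Asic3 higher in 4 of 7) or P2rx6 and Asic1 (P2rx6 higher in 5 of 7). P2rx4 was above P2rx6, Asic1 above Asic2, Asic2 above P2rx5 and P2rx5 above P2rx2 in 7 of 7 libraries.

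Among the 28 pairs of the 8 tested genes, the ratio of Piezo2 to P2rx3 varied least over the 7 libraries, from 0.325 to 0.407 in TPM, a 1.25-fold range. The next pair was Asic2 and Asic3, from 0.200 to 0.279. The widest was P2rx3 to P2rx6, from 4.19 to 20.6, whose upper end was ZT8 replicate 2. The Piezo2 to P2rx3 ratio was 0.377 ± 0.0254 at ZT20 (SD, n = 4) against 0.364 ± 0.0391 at ZT8 (SD, n = 3), a difference within the spread of either group. This ratio of TPM is untouched by a factor applied to a whole library, but not by the length and GC correction, after which the log2 differences were −0.30 for Piezo2 and 0.41 for P2rx3. The pair was singled out after its values were seen.

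ZT8 replicate 2 was the lowest of all 7 libraries for 7 of the 8 tested channel genes, the exception being P2rx3. Its level was 92.9% of the mean of the other ZT8 libraries for Piezo2 and 92.3% for P2rx3. It was 70.6% for Asic1, 48.7% for Asic2, 44.5% for P2rx4, 38.5% for Asic3, 35.5% for P2rx5 and 22.0% for P2rx6. So 5 of the 8 were under 50% in that library, against 20.3% of 14729 genes, whose median was 89.4%. The medians were 77.6% for 10 neuronal markers, 67.2% for 7 markers of large-diameter neurons, 87.2% for the nonpeptidergic and 110% for the peptidergic markers. They were 99.3% for 7 satellite glia, 79.0% for 7 Schwann cell, 62.1% for 8 macrophage, 55.4% for 4 plasma cell, 128% for 6 fibroblast and mural, 1.57% for 2 endothelial and 665% for 5 erythroid markers. The part of cell makeup and of the lower number of detected genes in these low values was not tested. ZT20 replicate 2 was likewise the lowest of its group for 6 of the 8 genes.

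Neither call held when the libraries whose Y-linked transcripts went against the label were left out. Without ZT20 replicates 3 and 4 the log2 difference was 0.38 for Piezo2 and 0.30 for P2rx3 (limma adjusted p = 0.312 and 0.385), and 0 of 14800 genes passed, with 2425 at an unadjusted p under 0.05. With ZT20 replicate 2 left out as well, which leaves 1 ZT20 library assumed to vary like the ZT8 group, the differences were 0.45 and 0.29 (limma adjusted p = 0.675 and 0.731), 0 genes passed and 1133 had an unadjusted p under 0.05. The direction was the same as in all libraries for all 8 channel genes in both fits.

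**Figure D3:**
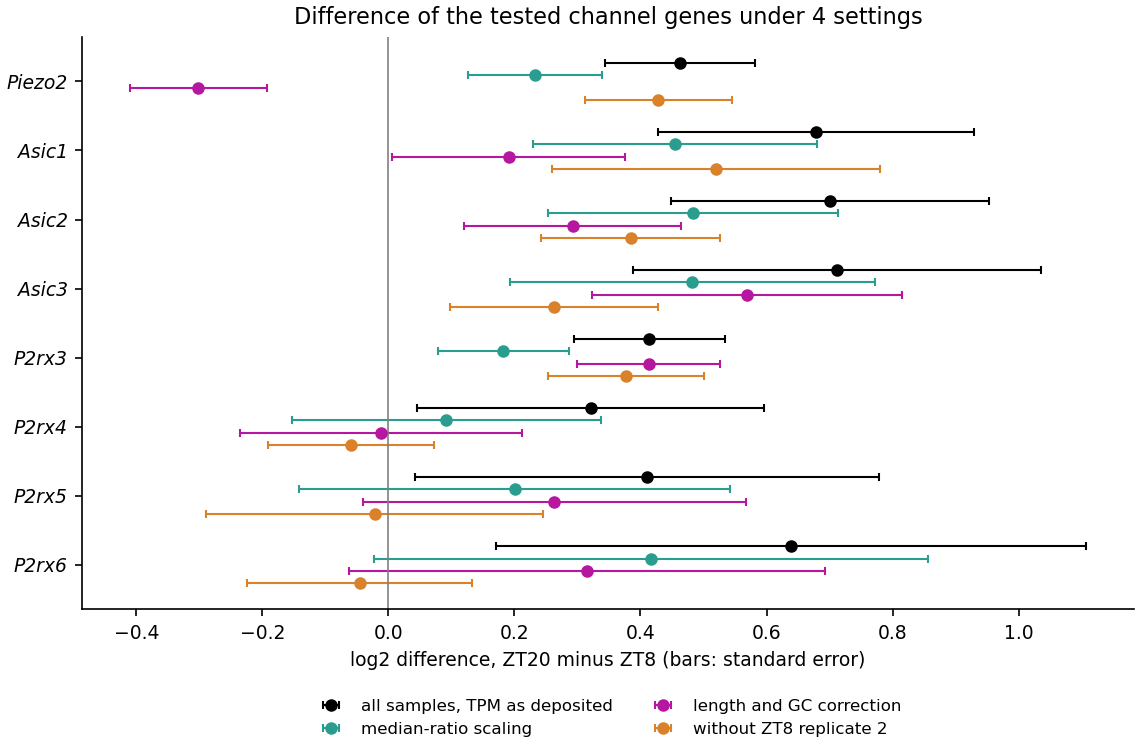
Log2 difference (ZT20 minus ZT8, bars 1 standard error) of the 8 tested channel genes with all libraries, after median-ratio scaling, after the length and GC correction, and without ZT8 replicate 2. Piezo2 lies at 0.46 with all libraries and at −0.30 after the length and GC correction, P2rx3 is positive in all 4, and P2rx4, P2rx5 and P2rx6 are near 0 without ZT8 replicate 2.

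Across the table the difference moved with transcript length. Tested genes were placed in 10 groups of equal size by their longest annotated transcript. Log2 differences had a median of −0.017 in the group that holds P2rx3 (1812 nt) and of 0.69 in the group that holds Piezo2 (10724 nt). P2rx3 had a larger difference than 81.6% of the genes in its length group and Piezo2 than 34.5% of its own. Asic3 (2211 nt) lay above 90.2% of its group, Asic2 (3436 nt) above 84.2%, P2rx6 (3382 nt) above 80.6%, P2rx5 (2395 nt) above 75.9%, Asic1 (4114 nt) above 75.3% and P2rx4 (3895 nt) above 47.1%. The length groups of P2rx3 and Piezo2 had 10.5% and 36.9% of their genes past the threshold. After the length and GC correction 0 of the 8 channel genes passed, and 8.84% of all genes did. An unadjusted limma p under 0.05 was reached by 3 of the 8 (P2rx3 and Asic3 higher and Piezo2 lower at ZT20) and by 3992 of 14745 genes.

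**Figure D4:**
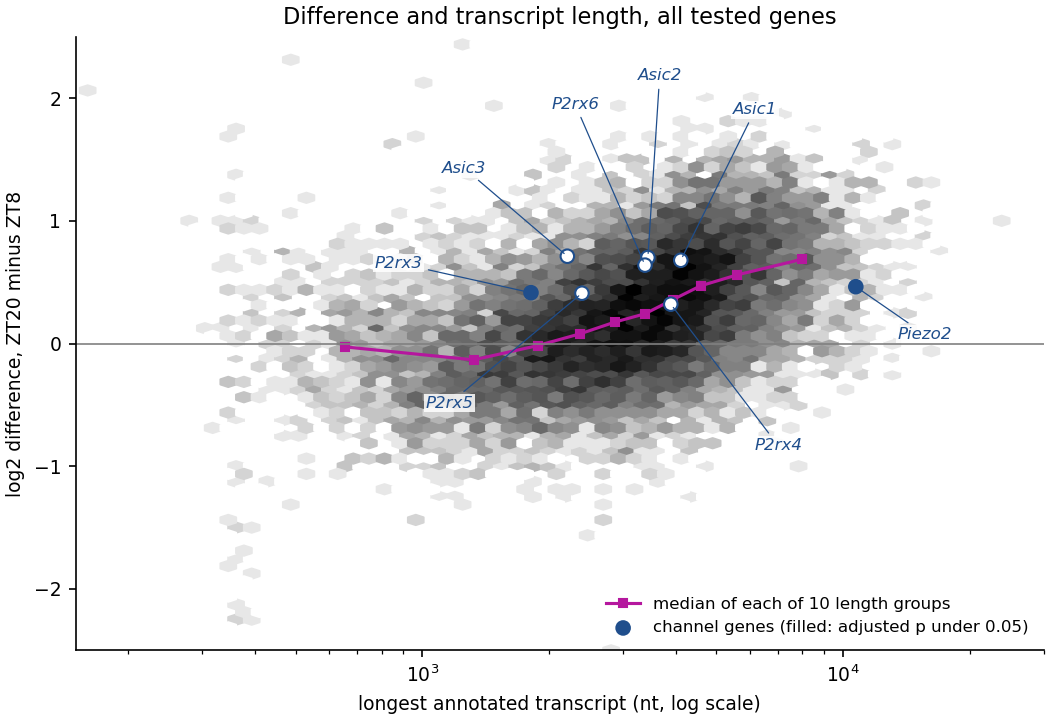
Log2 difference of all tested genes (ZT20 minus ZT8, axis limited to ±2.5) against the length of the longest annotated transcript (nt, log axis), darker where more genes fall. Squares are medians of 10 length groups and circles the 8 channel genes, filled for adjusted p under 0.05. The median rises from −0.027 in the shortest group to 0.69 in the longest, where Piezo2 lies below it, and P2rx3 lies above the median of its group.

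Other genes of the same senses were taken from a list of 54 chosen by function, of which 38 were tested. Of the 38, 4 rose at ZT20 and 1 fell, so 13.2% passed, against 16.4% of all tested genes, and the median log2 difference was 0.34 against 0.23. Of 14 mechanical genes 1 rose and 0 fell, of 8 genes related to acid sensing 1 rose and 0 fell, and of 16 genes of ATP signalling 2 rose and 1 fell. After the length and GC correction 0 of the 38 rose and 2 fell. Under median-ratio scaling 2 rose and 1 fell, and under quantile normalization 2 rose and 2 fell.

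In the ATP list, 3 genes of extracellular nucleotide breakdown passed, Acpp, Nt5e and Entpd1. Of the same kind, Entpd2 (−0.62, limma adjusted p = 0.125) and Entpd3 (0.72, limma adjusted p = 0.129) did not pass and differed in sign. Under quantile normalization Entpd2 passed as lower at ZT20. Acpp, prostatic acid phosphatase, which makes adenosine on nociceptors, was at 45.6, 45.45, 72.4 and 53.3 TPM at ZT20 and at 25.9, 26.8 and 30.6 TPM at ZT8. The groups did not overlap, and the log2 difference was 0.92 (standard error 0.19, limma adjusted p = 0.0158). Nt5e (CD73), which turns AMP into adenosine, was at 25.4, 20.2, 32.3 and 29.3 TPM at ZT20 and at 19.4, 14.7 and 14.5 TPM at ZT8. Its lowest ZT20 library lay just above the highest of ZT8, with a log2 difference of 0.69 (standard error 0.20, limma adjusted p = 0.0484). Entpd1 (CD39), which cleaves ATP and ADP and is known from immune and vascular cells, ran the other way, at 7.81, 8.89, 11.3 and 11.1 TPM at ZT20 and at 16.8, 16.1 and 19.4 TPM at ZT8. Every ZT20 library lay below every ZT8 library, with a log2 difference of −0.79 (standard error 0.19, limma adjusted p = 0.0260).

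In the acid list, Trpv1, the capsaicin receptor that protons also open, was at 36.8, 28.2, 51.3 and 38.1 TPM at ZT20 and at 17.4, 18.1 and 22.35 TPM at ZT8. The groups did not overlap, and the log2 difference was 0.94 (standard error 0.21, limma adjusted p = 0.0208). In the mechanical list, Mtmr2, a lipid phosphatase known to restrain Piezo2 currents, was at 43.0 ± 5.48 TPM at ZT20 (SD, n = 4) and averaged 28.2 ± 5.88 TPM (SD, n = 3) at ZT8 (log2 difference 0.60, standard error 0.17, limma adjusted p = 0.0484). Trpa1, the irritant channel, was at 16.7 ± 1.35 TPM at ZT20 (SD, n = 4) and averaged 11.3 ± 3.18 TPM at ZT8 (SD, n = 3), with ranges that did not overlap, and did not pass (0.56, limma adjusted p = 0.0871). Without ZT8 replicate 2 it was 0.76 and passed (limma adjusted p = 0.0137, of a range of 0.0137 to 0.752 over 18 alternatives). Stoml3, a stomatin-like protein known to sensitise Piezo channels, was listed at 0 in 4 of the 7 libraries and was at most 0.198 TPM in the others.

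After the length and GC correction 1 of these 5 passed, Entpd1 (−1.13, limma adjusted p = 0.0113), and Acpp, Trpv1, Mtmr2 and Nt5e were at 0.52, 0.66, 0.31 and 0.34 (limma adjusted p = 0.0896, 0.0685, 0.205 and 0.226). Under median-ratio scaling Mtmr2 and Nt5e did not pass (0.37 and 0.46, limma adjusted p = 0.122 and 0.0998), and Acpp, Trpv1 and Entpd1 did. Leaving out 1 library ended the call of Acpp only without ZT20 replicate 4 (limma adjusted p = 0.0532), and over those 7 fits the highest limma adjusted p was 0.0656 for Trpv1, 0.0704 for Entpd1, 0.135 for Mtmr2 and 0.142 for Nt5e.

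**Figure D5:**
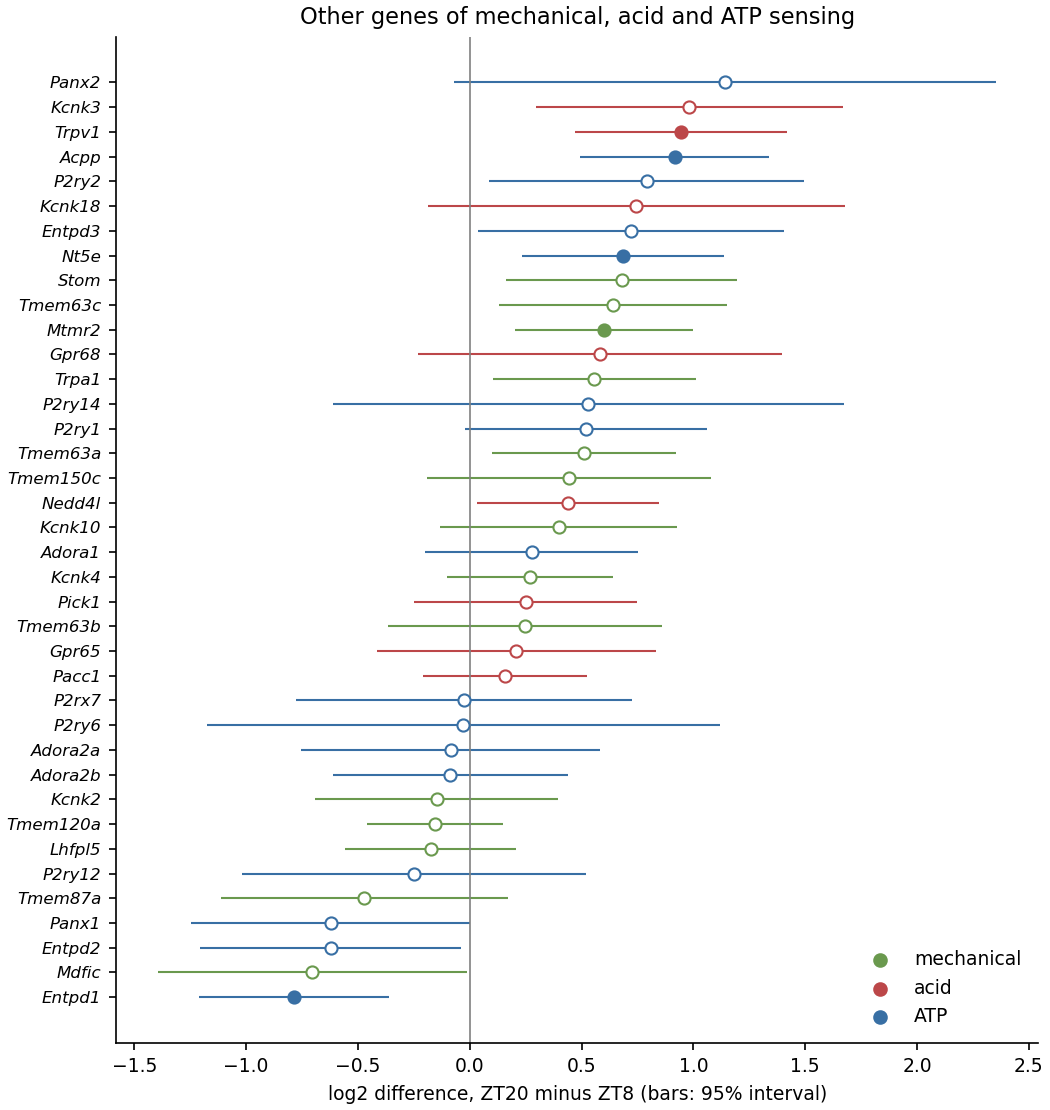
Log2 difference (ZT20 minus ZT8, bars 95% interval) of the 38 tested genes related to the channels by function, coloured by sense and filled where the adjusted p is under 0.05. The filled points are Trpv1, Acpp, Nt5e and Mtmr2 above 0 and Entpd1 below 0.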

How the data were processed

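RNA sequencing libraries were made from 7 samples of neuron-enriched lumbar ganglion cells with a low-input kit, per the labels' protocols. The authors deposited 1 table of TPM per gene, scaled to the same sum in every sample, and 0 columns of sample values were left unused. The submitters' processing notes name FastQC 0.11.9, Trim Galore 0.6.6, Salmon 1.6.0, DESeq2 1.34.0 and the build GRCm39, with no role or order. The annotation release, the step from transcripts to genes and any scaling between samples are not given in the sources used here. TPM has a fixed sum, so a rise of abundant genes lowers all others, and it holds no depth.

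From these values log2(TPM + 1) was computed, 14800 genes averaging 1 TPM or more were kept, and limma (version 3.58.1, R 4.3.3, with intensity trend) was fitted over all 7 samples with Benjamini-Hochberg adjustment over all tested genes, two-sided, at 0.05. The fit was tested on simulated data. Groups came from the sample titles. Transcript length, GC content and overlaps came from GENCODE M21, known for 99.6% of tested genes, and promoters from RefSeq on GRCm38.p6, so no coordinates of the authors' build are given.

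The channel genes and lists were chosen with earlier results of these data known. Named were all 10 channel genes, related genes with adjusted p under 0.05, and 6 fixed relatives (P2rx7, P2rx1, Asic4, Stoml3, Trpv1 and Trpa1); Asic5, Entpd2, Entpd3 and the marker genes were named after their values were seen. A marker gene is not reported here. Alternatives changed the pseudocount (0.1), the filter (none, or 5 TPM on average) and the scaling (median-ratio or quantile), corrected length and GC content by loess (span 0.3), used the replicate number as a block with and without that correction, added a marker score as covariate, or left out libraries. The marker score was the mean of the general neuronal markers less that of the satellite glia, Schwann cell, macrophage, endothelial, and fibroblast and mural markers. Plasma cell, erythroid and neuron subtype markers were not in it. Figures were drawn with matplotlib 3.10.9.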

Additional observations from a re-analysis of the deposited data

Results flagged for a closer look

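At ZT20, 1 library stood far from the other 3 for 4 of the 20 genes examined, meaning that its gap to the nearest value, as a share of the group's whole range, was above Dixon's 95% critical value. About 1 in 20 groups do so by chance. Asic3 was at 66.2 TPM in ZT20 replicate 2, a share of 0.846 of the range, and P2rx5 at 8.00 TPM in the same library, a share of 0.928. P2rx7 was at 3.02 TPM in ZT20 replicate 1, below the other ZT20 libraries (share 0.865). Trpa1 was at 18.7 TPM in ZT20 replicate 3, above the other ZT20 libraries (share 0.848).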

How the results depend on the processing

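Signs of the channel genes were stable except in 7 cases. Piezo2 turned to −0.30 under the length and GC correction and to −0.27 with the replicate block added to it, and P2rx4 to −0.012 and −0.035. Without ZT8 replicate 2, P2rx4, P2rx5 and P2rx6 were at −0.059, −0.022 and −0.045, and the highest values over the fits without 1 library were 0.57, 0.74 and 1.035. The small P2rx7 difference was positive with the marker score as covariate (0.087) and without ZT20 replicate 1, ZT8 replicate 1 or ZT8 replicate 3 (0.089, 0.20 and 0.14), and −0.42 without ZT8 replicate 2. The number of genes past the threshold was 1178 without a filter (0 channel and 1 related gene), 1304 under the length and GC correction (0 and 2), 1174 with the replicate block (0 and 2), 520 with block and correction together (0 and 2), and 0 with the marker score as covariate, where 2510 genes, 1 of them a channel gene, had an unadjusted limma p under 0.05 (0 related genes passed). It was 0 of each kind without ZT20 replicates 3 and 4 or without 2, 3 and 4. A pseudocount of 0.1 left 1 channel gene and 3 related genes, and median-ratio scaling 0 and 3. With the marker score as covariate the log2 difference was 0.38 for Piezo2 (standard error 0.20) and 0.57 for P2rx3 (standard error 0.19). All 8 channel genes were positive in that fit, with a median of 0.49. Over the fits without 1 library the counts ran from 624 to 3055 genes, 0 to 2 channel genes and 0 to 6 related genes. Without ZT8 replicate 2 the mean ZT8 share in the P2X sum went from 65.55% to 59.0% for P2rx3 and from 9.33% to 12.1% for P2rx6. Whether the replicate numbers pair the samples cannot be told from these values. Same-numbered samples had correlations of deviations of −0.014, 0.153 and 0.083, and 0.153 was the highest of all pairs. Differently numbered samples reached 0.15 (ZT20 replicate 3 with ZT8 replicate 1) and 0.143 (ZT20 replicate 4 with ZT8 replicate 3). ZT20 replicate 1 correlated best with ZT8 replicate 2 (0.040), so the block is a check only. The cause of these changes was not tested, beyond the fewer samples or more genes of an alternative. Depth is unknown, so values under 1 TPM, as of Piezo1 and P2rx2, have a counting error that cannot be estimated here.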

Other observations

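Among the markers used to check cell makeup, 2 of 7 large-diameter neuron genes and 2 of 10 general neuronal genes rose at ZT20, against 12.8% of all tested genes. Nefh, the heavy neurofilament of myelinated neurons, was at 649 TPM on average at ZT20 and 261 TPM at ZT8 (log2 difference 1.36, limma adjusted p = 0.00569), and Ntrk3, the neurotrophin-3 receptor, at 51.3 and 29.6 TPM (0.76, limma adjusted p = 0.0260). Pvalb, the calcium buffer of proprioceptors, was at 170 and 254 TPM and did not pass (−0.58, limma adjusted p = 0.0750), so the 7 large-diameter markers had no common direction (2 rose, 0 fell, median −0.064). Of 10 general neuronal markers 2 rose, Elavl4 (1.08, limma adjusted p = 0.00735) and Syt1 (0.75, limma adjusted p = 0.0109), and 0 fell. In the length group of Ntrk3 (19703 nt) 36.95% of genes passed, with a median difference of 0.69. In that of Syt1 (4820 nt) 20.81% passed (median 0.47), and in that of Nefh and Elavl4 15.2% (median 0.36). Among satellite glia markers, Apoe (−0.88, limma adjusted p = 0.00657) and Fabp7 (−0.39, limma adjusted p = 0.0327) fell at ZT20, against 3.61% of all tested genes. In the same list, Cdh19 (0.38), Kcnj10 (0.21), Glul (−0.42) and Sox10 (−0.38) did not pass.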
